A study of Homo sapiens with 28 samples.

Results

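MYC, a transcription factor that drives cell growth, lies in a wide stretch of chromosome 8 that holds few other protein-coding genes. The H3K27ac peaks in a window of 2.5 Mb around it were taken from 14 lists, at 8:127500000-130000000 in GRCh37/hg19. Every peak that overlapped the window by at least 1 bp was kept, without regard to its strength. The window held 1127 of the 654580 peaks in all lists. Peaks that shared at least 1 bp were merged over the lists into 242 of 138849 regions. Distances are given from the MYC start site at position 128748315, positive in the direction of MYC transcription, and the MYC gene ends at position 128753680.

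H3K27ac, acetylation of lysine 27 on histone H3, marks promoters and enhancers in use. The desert around MYC is known for enhancers that act on MYC from far upstream and far downstream, different ones in different tissues. PVT1, a long noncoding RNA gene, is transcribed in the same direction as MYC and is the next gene downstream of it. In the RefSeq gene order POU5F1B, a POU5F1 retrogene, is the nearest protein-coding gene upstream and GSDMC, a gasdermin gene, the nearest downstream. Long noncoding RNA genes such as CASC11, CCAT2, CASC8 and CASC21 lie between POU5F1B and MYC or just beyond POU5F1B, and MIR1204, MIR1205, MIR1206, MIR1207 and MIR1208 follow on the PVT1 side. These genes are given by order alone, because the annotation used was of another genome build, so no region below is assigned to PVT1, an exon or an intron.

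The libraries came from SW872, a human liposarcoma line, stably carrying Flag-tagged constructs, with 2 libraries for each of 7 labels. Empty vector is the control. Epithelioid hemangioendothelioma, a vascular sarcoma, carries the fusions TAZ-CAMTA1 or YAP-TFE3. In TAZ4SA and YAP5SA the sites through which the Hippo kinases restrain TAZ and YAP are mutated. Full-length CAMTA1 and TFE3 supply the C-terminal ends of the fusions. All groups are of the same line, and the sources differ on density, since the labels except the CAMTA1 cells, collected sub-confluent, from near-confluence, whereas the methods for the ChIP-seq give the same near-confluence for every construct. If the labels hold, construct and density cannot be told apart for CAMTA1. The constructs written in the file and peak names differed from the labels in 14 of 14 lists. The lists labelled empty vector are named CAMTA1 there, those labelled TAZ4SA are named empty vector, those labelled TAZ-CAMTA1 are named TAZ4SA, and those labelled CAMTA1 are named TAZ-CAMTA1. The lists labelled YAP5SA are named TFE3, those labelled YAP-TFE3 are named YAP5SA, and those labelled TFE3 are named YAP-TFE3. Libraries are called by their labels below, both readings are given where they matter, and which construct a list belongs to was not settled.

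The lists held 5721 to 102009 peaks, the shortest being TFE3 replicate 1 and the longest TAZ4SA replicate 1. Peaks were ranked within their list by −log10 p, with rank 1 the strongest, and ranks are also given as a percent of the list because the lists differ in length. Read totals were not used here. The fragments at a peak summit were recovered from its fold enrichment and p, and in every list 99.8% of peaks or more came out within 0.05 of a whole number. The local background recovered for the peaks of chromosome 8 was 1.02 to 1.14 times that of the other chromosomes.

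The peaks that recurred lay in a few clusters, and some long stretches of the window had no peak in any list. Each list had 6 to 174 peaks in it, with a median of 71.5, and these covered 0.168% to 9.96% of the window. Of the 242 regions, 107 lay upstream of the MYC start, 134 downstream and 1 over it. A single library carried 135 of them, 55.8%, against 55.4% of all regions in the genome. At the other end, 23 regions had a peak in 12 or more libraries, 9.50% against 10.1% of all regions, and 5 had one in all 14, 2.07% against 2.93% of all regions. These shares were close to those of the genome. Regions in 12 or more libraries were 3040 to 23244 bp wide with a median of 7470 bp, whereas those in 1 library were 258 to 1134 bp wide with a median of 389 bp.

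The 23 recurring regions fell into 6 clusters separated by more than 100 kb. The largest had 10 regions from −1.796 to 237 kb, that is the MYC promoter and the stretch just beyond MYC, on the side where PVT1 begins. Between 50 and 250 kb downstream there were 9 of these regions among 60 of any kind. Upstream, 4 regions lay between −533 and −438 kb, 1 between −911 and −899.6 kb, and 5 between −1180 and −1105 kb. Farther downstream 2 regions lay between 431 and 444 kb and 1 between 1050 and 1053 kb. No list had a peak between 692 and 929 kb downstream, between −1104 and −911 kb, or between −743 and −575 kb. The nearest region upstream of the promoter was at −66.8 to −66.5 kb, a peak of 294 bp in TAZ4SA replicate 2 alone at rank 72077 of 98992, and the next one ended at −89.6 kb. Beyond that, regions from −99.0 to −94.4 kb and from −119.9 to −115.5 kb had peaks in 10 and 9 libraries.

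**Figure D1:**
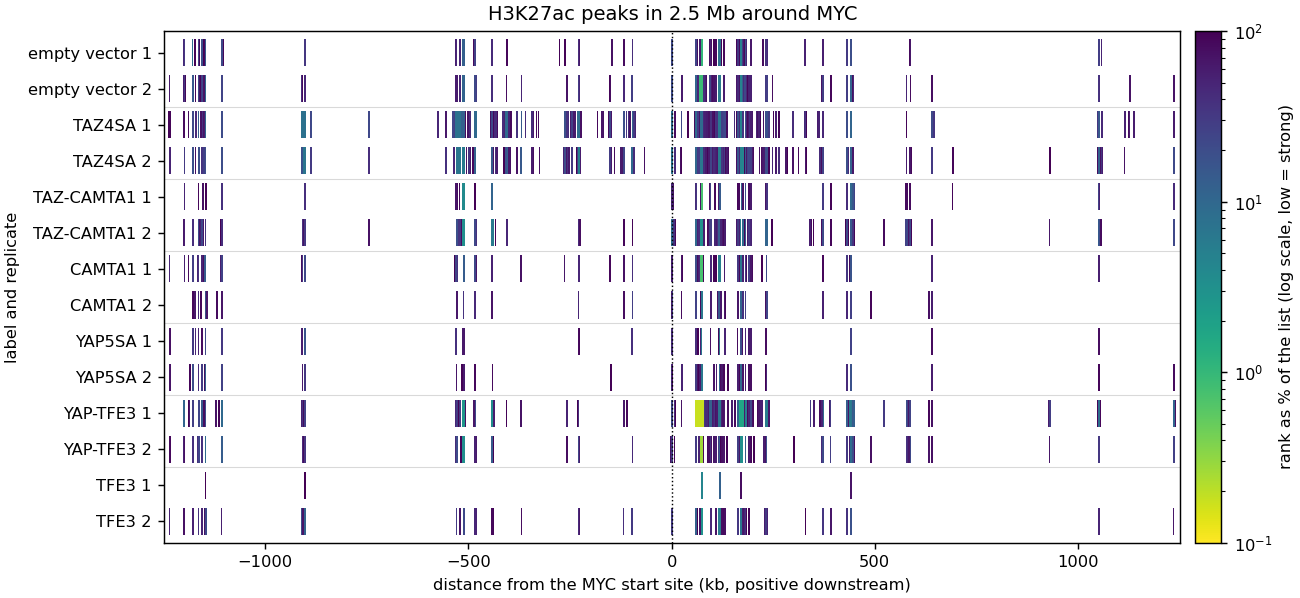
Each row is 1 library and each bar a peak, placed by distance from the MYC start site (kb) and coloured by rank as a percent of its list on a log scale, where yellow is strong. Bars are drawn at least 4 kb wide. The recurring clusters line up across rows, the strongest peak in 12 of 14 rows is 74.0 kb downstream, and the row of TFE3 replicate 1 holds 6 peaks.

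The MYC promoter was acetylated in 13 of 14 libraries. Its merged region ran from −1.796 to 3.85 kb around the start (8:128746519-128752167, 5649 bp) and so covered the start and the start-proximal part of the 5366-bp gene. TFE3 replicate 1, the list of 5721 peaks, had no peak there. In 12 of the other 13 lists the promoter ranked below 5721, so its absence from a list of that length does not show that the mark was missing. The peak covered the start itself in 10 libraries, and 3 libraries had more than 1 peak within 1000 bp of it.

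By rank the promoter was an ordinary peak. Taking the strongest peak within 1000 bp of the start, the empty vector libraries had it at ranks 9438 and 10373, which are 22.0% and 20.8% of their lists. The libraries labelled TAZ4SA had it at 8450 and 6769, 8.28% and 6.84% of lists that were the longest of all. Those labelled TAZ-CAMTA1 differed, with rank 10244 (47.1%) in replicate 1 and 4222 (8.73%) in replicate 2, the best absolute rank of any library. The weakest ranks, 25661 and 17741 (53.5% and 56.7%), carried the label CAMTA1. YAP5SA libraries had it at 13077 and 12150 (42.1% and 40.2%) and YAP-TFE3 libraries at 12357 and 12094 (21.5% and 30.5%). TFE3 replicate 2 had it at 14343 (30.3%). Fold enrichment at the summit ran from 3.25 to 17.9 with a median of 5.20, and the summits held 15 to 74 fragments with a median of 29. The 2 highest folds, 12.8 and 17.9, were those labelled TAZ4SA, followed by 12.5 in TAZ-CAMTA1 replicate 2.

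The place of the summit also varied. In 9 libraries it lay 1.91 to 2.09 kb downstream of the start, inside the MYC gene, and in 2 more it lay at 0.948 kb (CAMTA1 replicate 2) and 0.548 kb (TFE3 replicate 2). Both libraries labelled YAP5SA had it upstream of the start, at −313 and −103 bp, and they were the 2 libraries of 13 with it there. YAP5SA replicate 2 and CAMTA1 replicate 2 each also had a separate peak near 2 kb, outside 1000 bp of the start. In CAMTA1 replicate 2 that peak was the stronger, at rank 9130 (29.2%), so its promoter rank depends on how the promoter is bounded. Just beyond the gene, a region from 5.61 to 7.51 kb downstream had peaks in 4 libraries, namely TAZ4SA replicate 1, TAZ-CAMTA1 replicate 2 and both labelled YAP-TFE3, at weak ranks from 18220 to 85130.

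**Figure D2:**
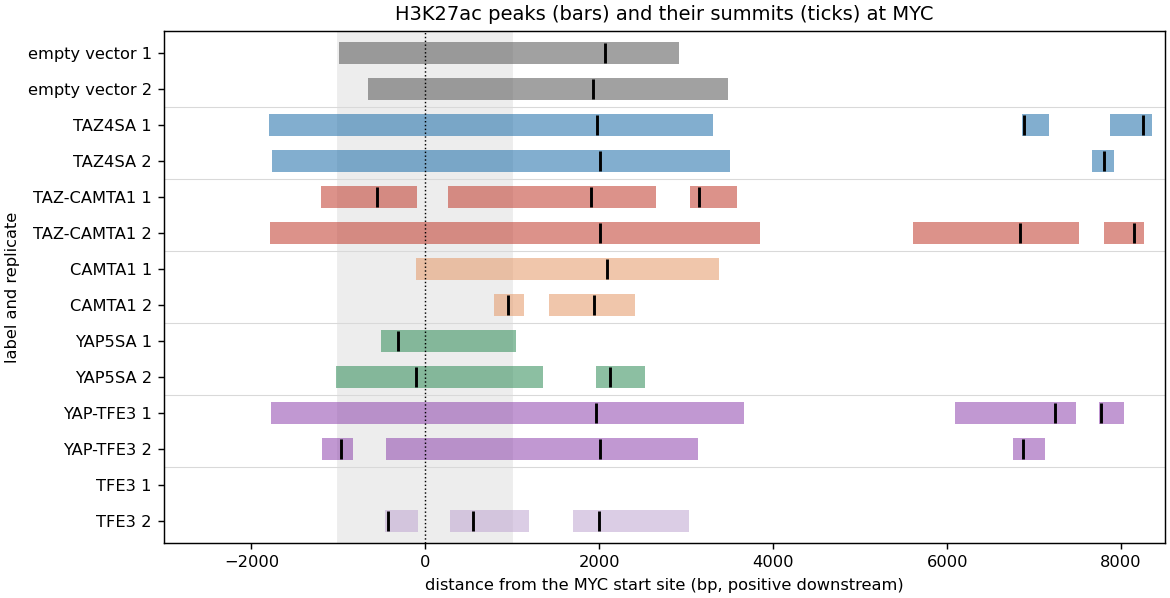
Bars are peaks and black ticks their summits, by distance from the MYC start site (bp), for the 14 libraries, with 1000 bp to each side shaded. Summits cluster near 2 kb downstream in most rows, lie just upstream of the start in both YAP5SA rows, and the row of TFE3 replicate 1 is empty.

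The rank of the promoter peak was then compared between labels. The absolute rank depends on the length of the list, so a difference in it is not by itself a difference in acetylation. Between-label spread made up 78.9% of the variance of log10 rank over the 13 libraries (6165 of 135135 pairings gave a value as high, one-sided exact permutation p = 0.0456). After adjustment over the 9 tests made the p was 0.0821, so the labels were not shown to differ with all libraries. The adjusted p was 0.00274 without TAZ-CAMTA1 replicate 1 and 0.0231 without replicate 2 (exact permutation). Either fit leaves that label, whose 2 ranks were the farthest apart (SD 0.27 of log10 rank, n = 2), with 1 library, so that the spread within labels comes from the other labels alone. The fusion-labelled libraries had a mean log10 rank of 3.95 ± 0.22 (SD, n = 4) and those labelled TAZ4SA or YAP5SA 3.99 ± 0.13 (SD, n = 4), a difference of -0.04 (two-sided exact permutation p = 0.771, adjusted p = 0.771). Against the label CAMTA1 or TFE3, at 4.27 ± 0.13 (SD, n = 3), the difference was -0.32, a better rank for the fusion labels (two-sided exact permutation p = 0.0571, adjusted p = 0.0857). The 11 construct libraries with the peak, at 4.05 ± 0.21 (SD, n = 11), differed from the empty vector, at 3.995 ± 0.03 (SD, n = 2), by 0.06 (two-sided exact permutation p = 0.654, adjusted p = 0.771). With rank as a percent of the list, the between-label part was 76.1% (exact permutation p = 0.112, adjusted p = 0.201). The difference of the fusion labels from TAZ4SA and YAP5SA then turned to 0.11 (exact permutation p = 0.743, adjusted p = 0.836), and that from CAMTA1 and TFE3 was -0.30 (exact permutation p = 0.171, adjusted p = 0.257). With the promoter taken as within 2500 bp of the start, this part was 54.6% (exact permutation p = 0.438, adjusted p = 0.657) and the difference from CAMTA1 and TFE3 was -0.22 (exact permutation p = 0.314, adjusted p = 0.566). None of the 4 comparisons exceeded the spread between libraries after adjustment with all libraries in the fit. Grouped by the file and peak names, the fusions had worse ranks than TAZ4SA and YAP5SA, by 0.32 (exact permutation p = 0.0571, adjusted p = 0.0857), and than CAMTA1 and TFE3, by 0.22 (exact permutation p = 0.0286, adjusted p = 0.0643).

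The strongest and widest region of the desert was not the promoter but a domain 57.4 to 80.7 kb downstream of the MYC start (8:128805727-128828970, 23244 bp), on the PVT1 side. It was present in all 14 libraries, and its main summit was at 74.0 kb in each, between 73.96 and 74.045 kb. In 12 libraries it was the strongest peak of the window. It held 36 to 167 fragments at the summit with a median of 84.5. The lists broke the domain into 1 to 9 peaks that covered 1.22 to 22.7 kb of it, with a median of 11.98 kb.

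Its rank varied widely between lists. Both libraries labelled YAP-TFE3 had it at ranks 102 and 106, which put it in the top 0.177% and 0.267% of their lists, the best of any label. The empty vector libraries had it at 445 and 444, or 1.04% and 0.891%. It ranked 164 (0.754%) and 1446 (2.99%) under TAZ-CAMTA1, 356 (0.742%) and 1947 (6.22%) under CAMTA1, and 246 (4.30%) and 1350 (2.85%) under TFE3. The YAP5SA label had it at 1980 and 1881, 6.37% and 6.22% of the lists. The libraries labelled TAZ4SA stood at the weak end with ranks 9412 and 6455, or 9.23% and 6.52%. Replicates were alike for empty vector, YAP-TFE3 and YAP5SA and unlike for TAZ-CAMTA1 and CAMTA1. Fold enrichment did not follow rank closely, since it was 23.8 and 24.2 for empty vector, 24.9 and 20.4 for YAP-TFE3, 12.6 and 15.7 for TAZ4SA, 25.6 and 10.6 for CAMTA1 and 12.6 and 6.60 for YAP5SA.

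In the libraries labelled TAZ4SA the strongest peak was instead at 171 kb downstream, at ranks 4655 and 4292 with folds of 25.2 and 18.3. It belongs to a region from 162 to 178 kb (8:128910335-128926272, 15938 bp) that was also found in all 14 libraries. Its rank as a percent of the list was 4.56% and 4.34% under TAZ4SA and 4.94% and 4.37% under empty vector. The lowest were 1.72% and 3.23%, under YAP-TFE3. The remaining libraries had 5.10% to 19.3%, apart from TFE3 replicate 1 at 80.6%. The region from 114 to 125 kb (8:128862168-128873704, 11537 bp) had its summit near 118 kb and ranked between 5.24% and 15.3% of the list over the 14 libraries, with a median of 7.33%. These 3 regions supplied 33 of the 42 peaks that were among the 3 strongest of the window in their list, namely 12 in the domain at 74.0 kb, 11 in the region around 171 kb and 10 in the one around 118 kb.

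The other 2 regions found in all lists were far from MYC. That from 438 to 444 kb downstream (8:129186706-129192691, 5986 bp) ranked from 2012 to 11472, with the best values as a percent of the list in YAP-TFE3 (5.55% and 8.78%) and TAZ-CAMTA1 replicate 1 (9.25%). That from −1152 to −1145 kb (8:127595836-127603305, 7470 bp) ranked from 3515 to 20883. It was near the end of the list in TAZ-CAMTA1 replicate 1 (96.0%) and TFE3 replicate 1 (98.0%), and between 8.86% and 37.1% elsewhere. A further 9 regions had peaks in 13 libraries. In 8 of them the missing library was TFE3 replicate 1, so the count of regions present everywhere was set largely by the shortest list. The exception was the region from −911 to −899.6 kb, which lacked a peak in CAMTA1 replicate 2 and ranked best under TAZ4SA, at 7.62% and 6.80% of the list with folds of 19.5 and 18.1.

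**Figure D3:**
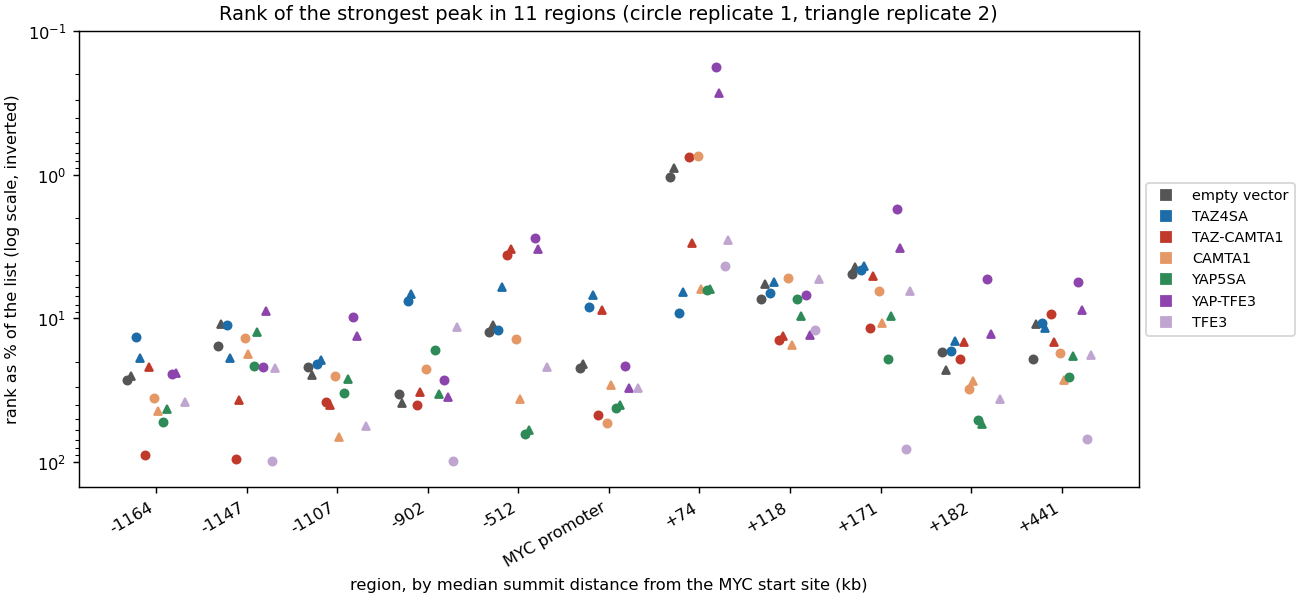
For the MYC promoter region and the 10 other regions found in the most libraries, ordered by summit distance from the MYC start (kb), each point is the strongest peak of a library in that region, by rank as a percent of its list on an inverted log scale. Circles are replicate 1, triangles replicate 2 and colours labels. The region at 74 kb reaches 0.177% and 0.267% in YAP-TFE3, the promoter lies between 6.84% and 53.5%, and both pairs of fusion-labelled points are highest at −512 kb.

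Among the upstream regions, that from −517 to −507 kb (8:128230937-128241245, 10309 bp) separated the fusion labels from the rest. The libraries labelled TAZ-CAMTA1 had it at ranks 789 and 1581 and those labelled YAP-TFE3 at 1571 and 1294, between 2.73% and 3.63% of the list. Ranks were 5334 and 5569 under empty vector, 12300 and 5996 under TAZ4SA, 6644 and 11436 under CAMTA1, 19733 and 18108 under YAP5SA and 10320 in TFE3 replicate 2, or 6.06% to 63.5% of the list. TFE3 replicate 1 had no peak. Folds overlapped, since TAZ4SA replicate 2 reached 18.7 against 12.9 to 20.4 in the fusion-labelled libraries. The region from −444 to −438 kb showed the same separation, at 3.37% to 14.1% in the fusion-labelled libraries against 14.5% to 85.2% in the other 8 libraries with a peak, which is a narrow gap between YAP-TFE3 replicate 2 and TAZ4SA replicate 2.

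These 2 were chosen after their values were seen and are given without a test. Of the 21 regions of the window that had peaks in 12 or more libraries and in all 4 fusion-labelled ones, 2 ranked better in all 4 than in every other library with a peak. That is 9.52%, and the same was true of 1.43% of 11408 such regions in the genome. The opposite order held for 0 of the 21 and for 0.894% of the genome. By the file and peak names the libraries with the better ranks are those of TAZ4SA and YAP5SA.

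The share of each list that fell in the window was then compared, since a share depends less on list length than a count. Empty vector libraries had 0.173% and 0.185% of their peaks there, 0.179% ± 0.00835 (SD, n = 2). The label TAZ4SA had 0.171% and 0.168%, or 0.169% ± 0.00204 (SD, n = 2), and YAP5SA 0.119% and 0.162%, or 0.141% ± 0.0304 (SD, n = 2). The fusion labels were highest, with 0.235% and 0.211% for TAZ-CAMTA1, 0.223% ± 0.0167 (SD, n = 2), and 0.203% and 0.214% for YAP-TFE3, 0.209% ± 0.00771 (SD, n = 2). CAMTA1 had 0.144% and 0.131%, 0.137% ± 0.00902 (SD, n = 2). TFE3 was lowest with 0.105% and 0.135%, 0.120% ± 0.0215 (SD, n = 2). Each of the 4 fusion-labelled libraries thus lay above all 10 others. By the file and peak names these 4 are the TAZ4SA and YAP5SA libraries, and those named as fusions had 0.105% to 0.144%.

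Labels accounted for 90.3% of the variance of the share (362 of 135135 pairings gave a value as high, one-sided exact permutation p = 0.00268, adjusted p = 0.0241). The call was lost when a library was left out in 8 of 14 fits, without either library of empty vector, TAZ4SA or CAMTA1, YAP-TFE3 replicate 1 or TFE3 replicate 1 (adjusted p up to 0.0665, exact permutation). This test is the same under either naming, because the 2 lists of each label share their other name. The fusion labels, at 0.216% ± 0.0133 (SD, n = 4), exceeded the labels TAZ4SA and YAP5SA, at 0.155% ± 0.0241 (SD, n = 4), by 0.0610 percentage points (two-sided exact permutation p = 0.0286, adjusted p = 0.0643). They exceeded CAMTA1 and TFE3, at 0.129% ± 0.0168 (SD, n = 4), by 0.0870 points (two-sided exact permutation p = 0.0286, adjusted p = 0.0643). This p is the smallest that 4 against 4 libraries can give, and neither difference passed 0.05 after adjustment. The 12 construct libraries, at 0.166% ± 0.0417 (SD, n = 12), did not differ detectably from the empty vector, the difference being -0.0122 points (two-sided exact permutation p = 0.692, adjusted p = 0.771). With the names as groups the first 2 differences turned to -0.0870 (exact permutation p = 0.0286, adjusted p = 0.0643) and -0.0308 points (exact permutation p = 0.114, adjusted p = 0.147). The call on labels was lost with peaks within 1000 bp joined, at 76.3% of the variance between labels (exact permutation p = 0.0590, adjusted p = 0.106). Joining also lowered the difference of the fusion labels from TAZ4SA and YAP5SA to 0.0286 points (exact permutation p = 0.0857, adjusted p = 0.129) and that from CAMTA1 and TFE3 to 0.0521 points (exact permutation p = 0.0286, adjusted p = 0.106). The call on labels was lost too within 500 kb of the MYC start, at 87.9% (exact permutation p = 0.00753, adjusted p = 0.0643), and under the replicate block, at 91.4% (exact permutation, adjusted p = 0.0607). In the narrower window the fusion labels exceeded TAZ4SA and YAP5SA by 0.0326 points and CAMTA1 and TFE3 by 0.0514 points (each exact permutation p = 0.0286, adjusted p = 0.0643).

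Other stretches of the genome showed such separations as well. The window is 1 of 1144 windows of 2.5 Mb with a peak in any list. In 44 of them, 3.85%, all 4 fusion-labelled libraries had a higher share than all 10 others. They lay above all libraries labelled TAZ4SA or YAP5SA in 11.7% of windows and above all labelled CAMTA1 or TFE3 in 12%. By number of peaks the MYC window ranked 54 to 76 among the 1144 in the fusion-labelled libraries, 133 and 165 in empty vector, 177 and 182 in TAZ4SA, and 179 to 329 in the remaining 6. At least 66.6% of windows had fewer peaks than it in every list.

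With every list cut to its strongest 5721 peaks, the length of the shortest, the separation remained. The fusion-labelled libraries then had 8 to 12 peaks in the window, namely 9 and 8 for TAZ-CAMTA1 and 12 and 9 for YAP-TFE3. Empty vector had 5 and 7, TFE3 6 and 4, YAP5SA 3 and 5, CAMTA1 3 and 4, and TAZ4SA 1 and 3, so that the nearest counts were 8 and 7. At this length the counts separated in the same way in 24 of 1063 windows of the genome with a peak in any list, 2.26%. The differences were 0.114 percentage points from TAZ4SA and YAP5SA and 0.0918 from CAMTA1 and TFE3, each with a two-sided exact permutation p of 0.0286, the same as for whole lists and the smallest possible. The adjusted p was 0.0357, lower than for whole lists because 5 tests were adjusted here instead of 9, the promoter tests having no value at this length. These shares rest on at most 12 peaks a library.

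**Figure D4:**
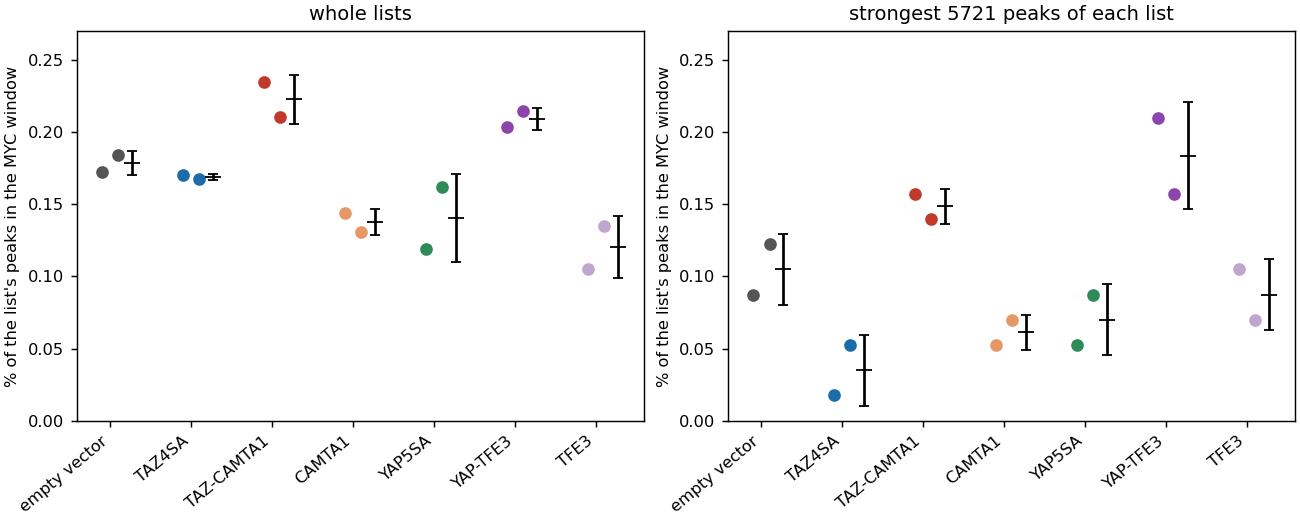
Points are the share of each library's peaks that overlap the MYC window (%), for whole lists and for the strongest 5721 peaks of each list, by label, with the mean and SD (n = 2) beside them. The 4 points labelled TAZ-CAMTA1 and YAP-TFE3 lie above all others in both panels, from 0.203% to 0.235% in whole lists.

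In 13 of 14 libraries more peaks lay downstream than upstream. Of the peaks in the window, 64.7% to 72.5% had their summit downstream of the MYC start in the 4 fusion-labelled libraries, and 48.9% to 61.2% in the others, apart from TFE3 replicate 1 with 4 of its 6 (66.7%), which lay among the fusion-labelled values. Without that list the groups did not overlap here, and of 918 windows of the genome with a peak in every list, split at the same place, 57 or 6.21% separated in either direction without it. Peaks between 380 and 600 kb downstream, a stretch chosen after the values were seen, were counted apart. There TAZ-CAMTA1 had 9 and 18 peaks and YAP-TFE3 16 and 14, against 6 and 8 for empty vector, 1 and 4 for TFE3, 1 and 2 for YAP5SA, 3 and 4 for CAMTA1, and 3 and 8 for TAZ4SA. The counts did not overlap between the fusion-labelled libraries and the others, the nearest being 9 against 8. The same was true of 48 of 8988 stretches of 220 kb with a peak in any list, 0.534%, and of 1 of the 2398 with at least as many peaks over all lists, 0.0417%. Those stretches were not chosen by their values, so these shares do not measure how unusual the chosen stretch is. As a percent of the peaks in the window the groups overlapped, since the fusion-labelled libraries had 13.7% to 17.6% there and TFE3 replicate 1, with 1 peak of 6, had 16.7%.

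Single regions of that stretch showed the pattern. The region from 578.8 to 581.3 kb (2527 bp) had peaks in both libraries labelled TAZ-CAMTA1 and both labelled YAP-TFE3 and in no other, at 81.6%, 22.5%, 25.6% and 43.8% of the list, which are middling to weak ranks with folds of 3.06 to 7.76. It was 1 such region of 242, 0.413%, against 0.1% of all regions in the genome. Just before it, the region from 576.8 to 578.5 kb had peaks in the same 4 libraries, in both labelled TAZ4SA and in empty vector replicate 2. Regions were joined only where peaks shared at least 1 bp, so the absence of other labels depends on where the peaks were split. The region from 390.6 to 391.8 kb was in the 4 fusion-labelled libraries and TFE3 replicate 2. It stood at 93.0% and 90.4% of the list under TAZ-CAMTA1 and at 32.1% and 28.5% under YAP-TFE3. TFE3 replicate 2 had it at 65.6%, a better percent rank than either TAZ-CAMTA1 library. The regions from 578.8 to 581.3 kb and from 390.6 to 391.8 kb had no peak under TAZ4SA or YAP5SA. These 2 are 0.826% of the regions of the window, against 0.187% of all regions. The region from 445.9 to 447.2 kb had its better ranks under the fusion labels, at 3440, 17192, 8565 and 7973, and its remaining peak was in TAZ4SA replicate 2 at 63745. Regions with peaks under both fusion labels in all 4 libraries and none under CAMTA1 or TFE3 numbered 5, all between 445 and 590 kb downstream, which is 2.07% against 0.472% of all regions. They are not all separate sites. The region from 445.9 to 447.2 kb lies beside that from 447.5 to 450.3 kb, and the region from 576.8 to 578.5 kb beside that from 578.8 to 581.3 kb. Neighbouring regions were not joined for this count. Regions with peaks in all 4 fusion-labelled libraries and none in empty vector numbered 3, 1.24% against 0.259%. They are those that begin at 390.6, 445.9 and 578.8 kb. The first of them is not among the 5, since TFE3 replicate 2 has a peak there. These counts are small. By the file and peak names the 4 libraries are those of TAZ4SA and YAP5SA, and the 5 regions have no peak in a list named as a fusion. The region from 390.6 to 391.8 kb does have a peak in a list named YAP-TFE3, at rank 31035.

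**Figure D5:**
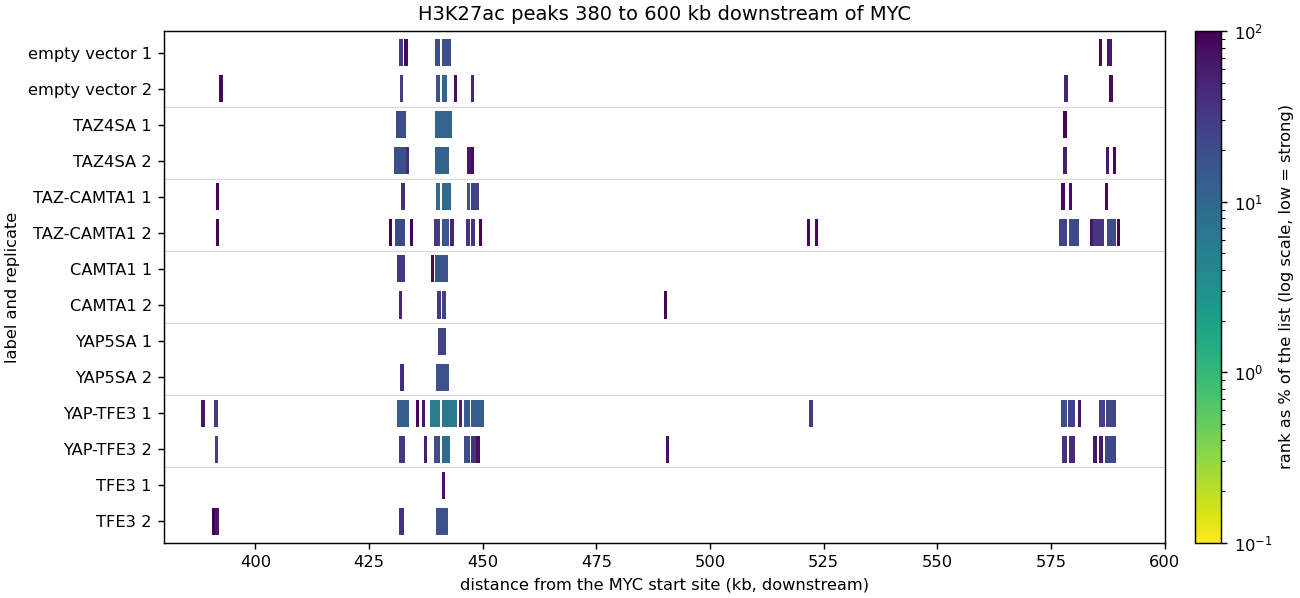
Each row is 1 library and each bar a peak between 380 and 600 kb downstream of the MYC start (kb), coloured by rank as a percent of the list on a log scale and drawn at least 0.7 kb wide. Peaks near 441 kb are in every row, while those near 447 and 579 kb are densest in the rows labelled TAZ-CAMTA1 and YAP-TFE3.

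The label TAZ4SA had many weak regions of its own. Both of its libraries and no other carried 27 of the 242 regions, 11.2%, against 9.54% of all regions in the genome, so the window was near the background. They were 27 of the 42 regions found in exactly 2 libraries. No other label had such a region, and over the genome such regions made up 0.39% of all regions for YAP-TFE3 and at most 0.0353% for each of the other 5 labels, so that 0 of 242 is near the background. The 2 with the best median of their 2 ranks lay from −889 to −888 kb, at 24530 and 30309 in replicates 1 and 2, and from −246 to −244 kb, at 27194 and 31096. The best single rank among the 27 was 21306, at −887.4 to −885.9 kb. Of the 135 regions in a single library, 53 and 30 were in TAZ4SA replicates 1 and 2 and 26 in YAP-TFE3 replicate 1. These are 39.3%, 22.2% and 19.3% of them, against 45.8%, 27.2% and 8.74% of such regions in the genome, so the TAZ4SA shares were below the background and that of YAP-TFE3 replicate 1 was above it. By the file and peak names these lists are empty vector and YAP5SA.

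Libraries of a label shared the regions of the window more than libraries of different labels did. The Jaccard index, the regions with a peak in both libraries divided by those with a peak in either, averaged 0.462 ± 0.145 over the 7 pairs within labels (SD) and 0.376 ± 0.171 over the 84 pairs across them (SD). Among the 135135 pairings, 1165 gave a difference of 0.0861 or more (one-sided exact permutation p = 0.00862, adjusted p = 0.0388). The highest index of all, 0.732, was between CAMTA1 replicate 1 and TFE3 replicate 2, which carry different labels. The lowest within a label was 0.182, and the lowest of all was 0.0426, between TAZ4SA replicate 1 and TFE3 replicate 1, the longest and the shortest list. In fits that left out a library the difference ran from 0.0611 to 0.159, and the call was lost in 12 of the 14. It was also lost within 500 kb of the MYC start and under the replicate block (exact permutation, adjusted p = 0.0643 and 0.0714). With lists of equal length the difference was larger, 0.150, and the call was kept (exact permutation p = 0.00486, adjusted p = 0.0122, over 5 tests). That setting left 17 regions in the window and 1 to 12 peaks a library, so the index rests on few regions.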

How the data were processed

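H3K27ac ChIP-seq peaks of SW872 cells were analysed in 14 lists, 2 for each of 7 labels. The 14 inputs were not used here. According to the methods, reads were trimmed with Atropos and mapped by BWA-MEM on GRCh37/hg19, reads with several placements and greylisted stretches were dropped, and MACS2 called the narrow peaks. Their methods describe pooled replicates and a looser q limit, whereas each list used here belongs to 1 library and its highest q was 0.05. The labels' protocol text names a Flag antibody, while the antibody field and the methods give H3K27ac. The deposited fold enrichment is a ratio at the summit over local background, and the deposited −log10 p and −log10 q are those of the authors' peak caller. The deposited score is derived from −log10 q and was not used.

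Peaks overlapping the window by at least 1 bp were merged over lists and ranked within a list by −log10 p. The best peak within 1000 bp of the start stood for the promoter. Summit fragments and background were solved from fold and p, which MACS2 computes from a Poisson model. The 9 tests were exact permutations over pairings of libraries or splits of groups, adjusted together by Benjamini-Hochberg. Groups were taken from the labels, and the methods call the replicates biological duplicates. Single pairs of labels were not tested, since 2 against 2 libraries cannot give a two-sided p under 0.333. Regions named were the promoter, the 10 others in the most libraries, the nearest on each side, the widest, and up to 2 exclusive to a label. The window, members and lists were chosen with earlier results of these data known. Whether equal replicate numbers deviate together was checked over 21 pairs of labels. The correlations ran from -0.473 to 0.425 with a median of -0.00978, and 6 were over 0.1. A batch shared by replicate number was not tested. Alternatives were stricter q limits, lists of equal length, each library left out, the replicate number as a block, the construct in the peak names, a narrower window, no promoter, joined peaks, a wider promoter, and fold or percent rank in place of rank. Fold and p are read within a list. Gene names and order came from RefSeq tables of another build. The code, tested on simulated data, ran under Python 3.11.15 with pandas 2.3.3, scipy 1.17.1, numpy 2.4.6 and matplotlib 3.10.9.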

Additional observations from a re-analysis of the deposited data

Results flagged for a closer look

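Among the 4 libraries labelled TAZ4SA or YAP5SA, the share of peaks in the MYC window in YAP5SA replicate 1, 0.119%, lay far below the other 3, which had 0.162% to 0.171%. Its gap to the nearest was 0.835 of the range, just above Dixon's 95% critical value for 4 samples. Of 7 such checks on groups of 4 libraries this was the 1 past its limit, and chance flags about 1 in 20. The share of this library was lower than that of the other YAP5SA library in whole lists and also among the strongest 5721 peaks, 3 peaks against 5. The TAZ and YAP arms gave fusion differences of the same sign in the share, 0.0536 percentage points for TAZ-CAMTA1 less TAZ4SA and 0.0684 for YAP-TFE3 less YAP5SA (difference between arms, exact permutation p = 0.833).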

How the results depend on the processing

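A region absent from a list may lie under the limit at which that list was called, and p-values measure the spread between these libraries alone. With lists of equal length, fusion labels exceeded TAZ4SA and YAP5SA by 0.114 points and CAMTA1 and TFE3 by 0.0918 points, with the same exact permutation p of 0.0286. No promoter result was had there, since too few lists kept the peak, so 5 tests were adjusted instead of 9 and the adjusted p, 0.0357, passed 0.05 for that reason. At a −log10 q of at least 5, the promoter rank difference from empty vector turned to -0.00366. With the names as groups, the fusion differences turned to -0.0870 and -0.0308 points in the share and to 0.32 and 0.22 in log10 rank. Against TAZ4SA and YAP5SA, the promoter difference also turned with percent rank, to 0.11, and with log2 fold, to -0.43, a lower fold. Labels accounted for 87.9% of the variance of the share within 500 kb, 76.3% with joined peaks and 91.4% under the replicate block, with adjusted exact permutation p of 0.0643, 0.106 and 0.0607, so the call was lost. Joined peaks also lowered the fusion differences in the share to 0.0286 and 0.0521 points. The overlap difference was 0.0756 within 500 kb and 0.0861 under the replicate block (adjusted exact permutation p = 0.0643 and 0.0714), and was lost too, while with lists of equal length it was 0.150 and was kept. Whether the replicate numbers pair the libraries was not settled. The cause was not tested.

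When single libraries were dropped, the between-label part of the variance of the share ran from 89.1% to 95.1%, with an adjusted p up to 0.0665 (exact permutation). For the promoter rank it ran from 72.9% to 95.7%, the call being gained without either TAZ-CAMTA1 library, when that label no longer adds to the spread within labels. Its fusion difference from TAZ4SA and YAP5SA ran from -0.0900 to 0.0720, turning without TAZ-CAMTA1 replicate 2 or YAP5SA replicate 1. That from CAMTA1 and TFE3 kept its sign, running from -0.377 to -0.210, and was nearest to none without TAZ-CAMTA1 replicate 2. The overlap difference ran from 0.0611 to 0.159.

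Counts moved by construction. At a −log10 q of at least 5 there were 86 regions, 2 in all libraries, 30 in 1 library and 10 under TAZ4SA alone. With lists of equal length there were 17 regions, 0 in all libraries, 6 in 1, 0 under TAZ4SA alone and 2 in all fusion-labelled libraries without CAMTA1 and TFE3. At either setting 1 region was under YAP-TFE3 alone, against 0 with all peaks of the whole lists. With the names as groups, 0 regions were under TAZ4SA alone, and 0 in all fusions without TAZ4SA and YAP5SA, without CAMTA1 and TFE3, or without any other. Leaving out a library, regions in all libraries ran from 5 to 13 (13 without TFE3 replicate 1) and those under TAZ4SA alone from 27 to 80 (66 and 80 without its own replicates). Fusion-labelled regions ran from 2 to 5 without TAZ4SA and YAP5SA, 5 to 9 without CAMTA1 and TFE3, and 1 to 2 without any other.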
